A study of Homo sapiens with 6 samples.

Results

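The genes described here make and process ribosomal RNA (rRNA) in the nucleolus. They were taken by gene symbol, from a given list of 55 names, out of the 17177 genes of the deposited expression table, and all 55 were found. The list covers RNA polymerase I and its factors (7 genes), the core proteins of box C/D small nucleolar ribonucleoproteins (4), those of box H/ACA small nucleolar ribonucleoproteins (4), 3 abundant nucleolar proteins, the small-subunit processome (13), late maturation of the 40S subunit (6), the PeBoW complex and 60S assembly (15), and 3 further factors. All libraries came from NCI-H660, an established cell line of neuroendocrine prostate cancer with a genotype labelled WT. The cells received either pyrvinium pamoate (PP), an anthelmintic dye given in the study as an inhibitor of the RNA-binding protein ELAVL3, or phosphate-buffered saline (PBS) as the control, and poly(A) RNA was sequenced at day 3. There were 3 PP and 3 PBS libraries, and the comparison asks how PP altered the transcriptome of these cells. The PP concentration used for these libraries was not given in the sources used here, and 1 cell line, at 1 time, is all that the values stand for.

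Gene levels are in FPKM, fragments scaled to transcript length and to the size of the library, so they are shares of each library and not amounts per cell. The whole fragment counts behind them added up to between 29064253 and 32481171 per library, the highest being 11.8% above the lowest. All 10 neuroendocrine markers were at a mean of 1 FPKM or more and 0 of the 4 luminal markers given were, as the label of the line says. The summed neuroendocrine markers were nevertheless lower with PP, at 473 to 488 FPKM against 859 to 867 FPKM with PBS, but their genes moved both ways, with 6 lower, 2 higher and 2 with an adjusted limma p of 0.05 or more (median log2 fold change −0.19). Of all 11726 genes tested, 34.4% were lower and 38.1% higher. Leukocyte, endothelial and fibroblast markers summed to 4.81 FPKM or less for each list in every library, and no defining marker was at 0 in all libraries. In bulk RNA of this kind, fewer cells of a type and less RNA per cell cannot be told apart.

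Ribosome production starts when RNA polymerase I, guided by UBTF, the SL1 factors and RRN3, transcribes the rDNA repeats into a long precursor. Small nucleolar RNAs, held by the box C/D proteins around fibrillarin and the box H/ACA proteins around dyskerin, direct methylation and pseudouridylation of the precursor. The small-subunit processome then folds and cuts the part that becomes 18S rRNA, while the PeBoW complex and many other factors shape the part that becomes the rRNA of the 60S subunit. Many of these genes are known targets of MYC family factors, which bind the E-box CACGTG. The libraries hold messenger RNA, so rRNA itself was not measured.

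Because E-boxes were frequent close to the transcription start of these genes, the site is shown in 10 promoters, 8 of them of genes that rose with PP and 2 of genes, *FBL* and *PES1*, that did not pass the test. Each sequence is a stretch of 30 bases from RefSeq, read 5′ to 3′ on the strand of the gene, with coordinates of the GRCh38.p14 build, and the capitals mark the E-box.
UTP4, chr16:69132621-69132650, plus strand: agagcgcgcgcgCACGTGgggccggggcgg
WDR43, chr2:28894658-28894687, plus strand: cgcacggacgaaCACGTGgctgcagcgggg
NOP14, chr4:2963374-2963403, minus strand: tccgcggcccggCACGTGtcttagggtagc
RRP9, chr3:51941892-51941921, minus strand: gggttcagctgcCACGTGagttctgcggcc
PNO1, chr2:68157885-68157914, plus strand: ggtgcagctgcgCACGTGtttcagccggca
LTV1, chr6:143843354-143843383, plus strand: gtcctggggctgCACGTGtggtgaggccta
GNL2, chr1:37595917-37595946, minus strand: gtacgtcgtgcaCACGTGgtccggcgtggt
MYBBP1A, chr17:4555340-4555369, minus strand: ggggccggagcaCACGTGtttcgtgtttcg
FBL, chr19:39846356-39846385, minus strand: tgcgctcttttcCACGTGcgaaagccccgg
PES1, chr22:30591880-30591909, minus strand: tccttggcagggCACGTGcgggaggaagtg
A promoter window, from 250 bases before the start to 50 after it, could be matched for 46 of the 55 genes. The E-box was present in 19 of these 46 windows (41.3%), in 10.4% of the windows of 9557 genes tested, and in 7.26% of all 35116 windows. In 17 of the 19 the E-box began within 50 bases of the start, which was so in 405 of the 991 genes tested that held one.

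Other motifs were counted in the same windows, on both strands. The consensus palindrome of NRF1 was in 5 of the 46 windows (10.9%), in 2.38% of the windows of genes tested and in 1.24% of all windows. The CCAAT box was in 17 (36.96%), a share near the 37.2% of genes tested and the 34.6% of all windows. TGATGNAA, a motif of ATF4 and related factors, was in 0 of the 46, in 1.56% of the windows of genes tested and in 3.62% of all windows. CACGTG and the NRF1 palindrome read the same on both strands, and none of the motifs holds another. These matches describe letters only. Of the 19 genes with an E-box, 13 were higher with PP, 0 were lower and 6 did not pass the test (median log2 fold change 0.40), and of the 27 with a window that held none, 20 were higher, 4 were lower and 3 did not pass (median 0.31). By the same test, 38.1% of all genes tested were higher and 34.4% lower.

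With PP, the mRNA of most genes of rRNA synthesis and processing rose by a moderate amount. Of the 55 genes, 40 were higher, 4 were lower (*NCL*, *NHP2*, *POLR1A* and *UBTF*) and 11 did not pass the test, which was limma on log2(FPKM + 1) with an adjusted p under 0.05 over all 11726 genes with a mean of at least 1 FPKM. PP changed a large part of the transcriptome, so these counts stand beside a background of 38.1% of all genes tested higher, 34.4% lower and 72.5% changed in either direction. The median log2 fold change of the 55 genes was 0.35, with quartiles of 0.13 and 0.50, and that of all genes tested was 0.02. The values ran from −0.61 to 1.24. All 55 genes passed the filter on low values.

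The rise was of like size in the 3 PP libraries. The median difference of the 55 genes from the PBS mean was 0.34, 0.34 and 0.31 on the log2 scale in the PP libraries. In these, 49, 49 and 45 of the 55 genes lay above the PBS mean. In PBS 1, PBS 2 and PBS 3, which set that mean, the counts were 29, 28 and 20. No such count was made over all genes. The summed level of the 55 genes was 1974, 1922 and 1933 FPKM with PBS and 2244, 2256 and 2225 FPKM with PP. This was 0.603% to 0.619% of all FPKM with PBS and 0.726% to 0.730% with PP. In 42 genes every PP library was above every PBS library, in 5 every PP library was below, and in 8 the groups overlapped, where over all genes tested the groups did not overlap in 75.0%, with 39.5% above and 35.5% below. Under the cutoff of the study's methods, a P under 0.001 with a log2 fold change beyond 1 in either direction, 1 of the 55 genes was higher (*TAF1D*; background 2.24%) and 0 were lower (background 2.93%), while 47 of the 55, and 8717 of all 11726 genes tested, had an unadjusted limma p under 0.05.

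**Figure D1:**
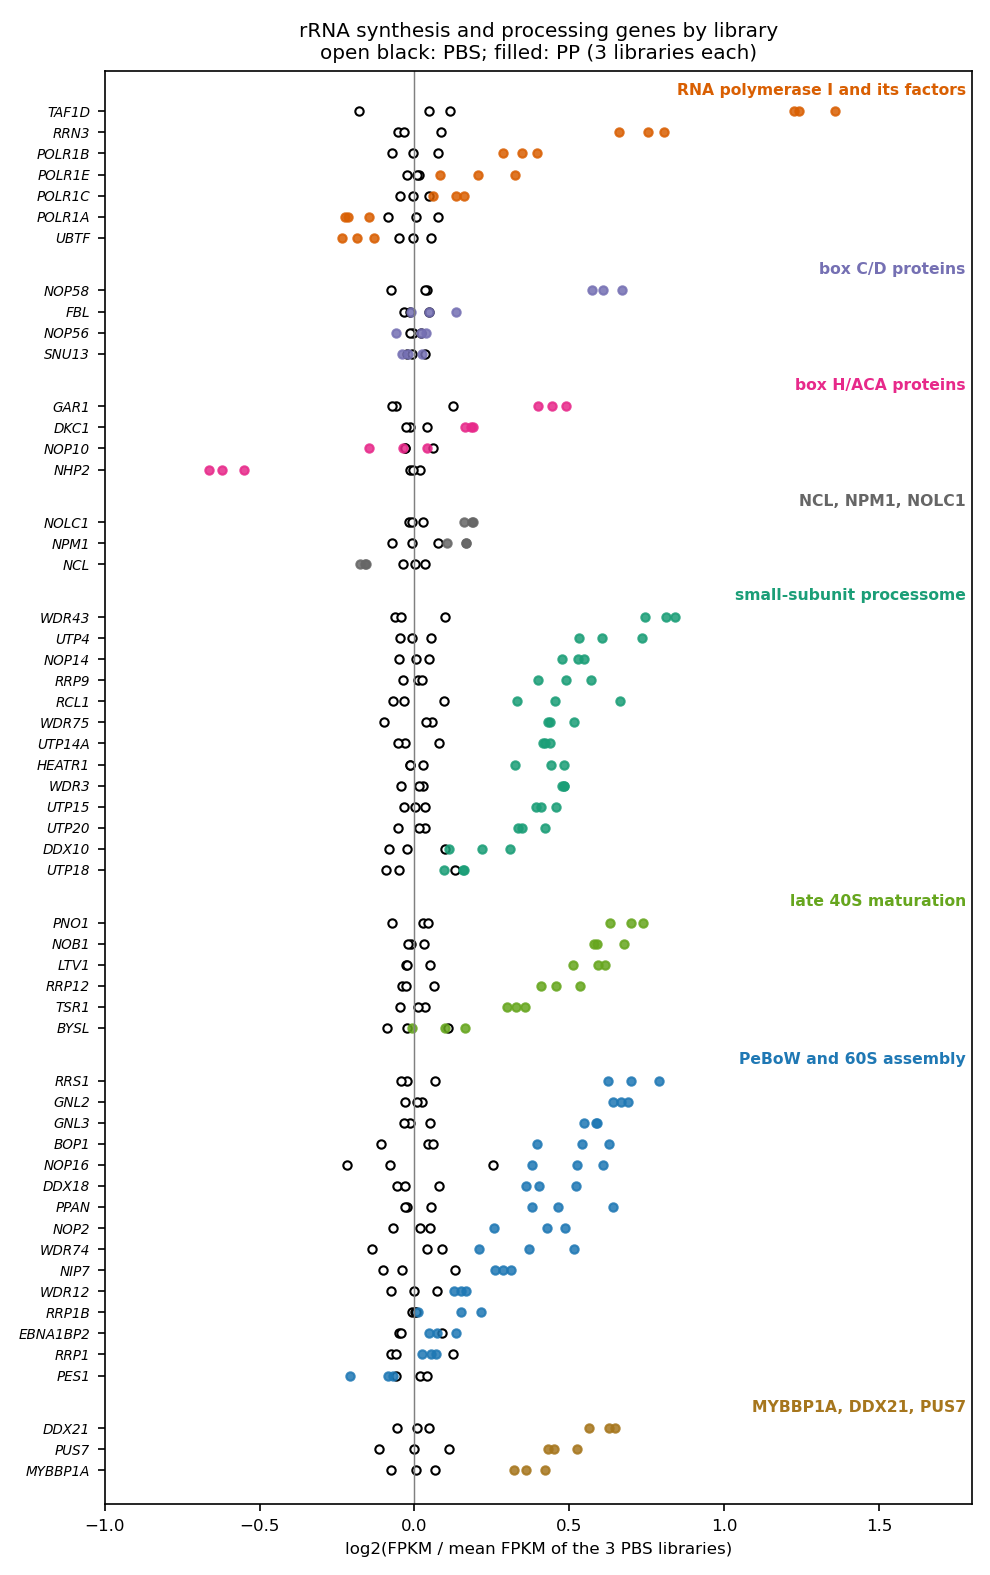
Level of each of the 55 genes in each library, as log2 of its FPKM over the mean of the 3 PBS libraries (x axis), grouped by role, with open points for PBS and filled points for PP. The small-subunit, late 40S and 60S groups lie mostly to the right, and *NHP2* lies farthest to the left at a log2 fold change of −0.61.

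Of the 7 RNA polymerase I genes, 4 were higher (57.1%), 2 were lower (28.6%) and 1 did not pass the test. Their median log2 fold change was 0.19, and of all genes tested 38.1% were higher and 34.4% lower. *TAF1D*, a subunit of the SL1 complex that recruits the polymerase to the rDNA promoter, had 20.1, 19.2 and 16.4 FPKM with PBS and 43.9, 43.3 and 47.6 FPKM with PP. The lowest PP library was more than 20 FPKM above the highest PBS library, and the log2 fold change was 1.24 ± 0.07 (SE; limma, adjusted p = 1.11e-07), the highest of the 55 genes. *RRN3*, also known as TIF-IA, the factor that makes the polymerase competent to initiate, had 20.1, 22.1 and 20.3 FPKM with PBS and 35.1, 33.0 and 36.4 FPKM with PP (log2 fold change 0.71 ± 0.05; limma, adjusted p = 6.82e-07). *POLR1B*, the second largest subunit, and *POLR1E*, a subunit found in polymerase I alone, rose by less (0.28 and 0.19).

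*UBTF*, which binds along the active rDNA and keeps it open, was at 44.02, 42.3 and 41.05 FPKM with PBS and at 36.1, 37.3 and 38.8 FPKM with PP. The groups did not overlap, and the log2 fold change was −0.18 ± 0.04 (limma, adjusted p = 0.0031). *POLR1A*, the largest subunit of the polymerase, had 5.95, 6.655 and 6.33 FPKM with PBS and 5.70, 5.44 and 5.40 FPKM with PP (−0.17 ± 0.06; limma, adjusted p = 0.0216). This last call was lost when PBS 2, PBS 3, PP 2 or PP 3 was left out (adjusted p between 0.0555 and 0.0885), and that of *POLR1E* when PP 2 was (0.0589). *POLR1C*, a subunit shared with RNA polymerase III, had 12.6, 13 and 12.2 FPKM with PBS and 13.8, 14.05 and 13.1 FPKM with PP. The groups lay just apart, but the log2 fold change of 0.11 ± 0.05 did not pass (limma, adjusted p = 0.0558; 0.033 without PP 3).

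**Figure D2:**
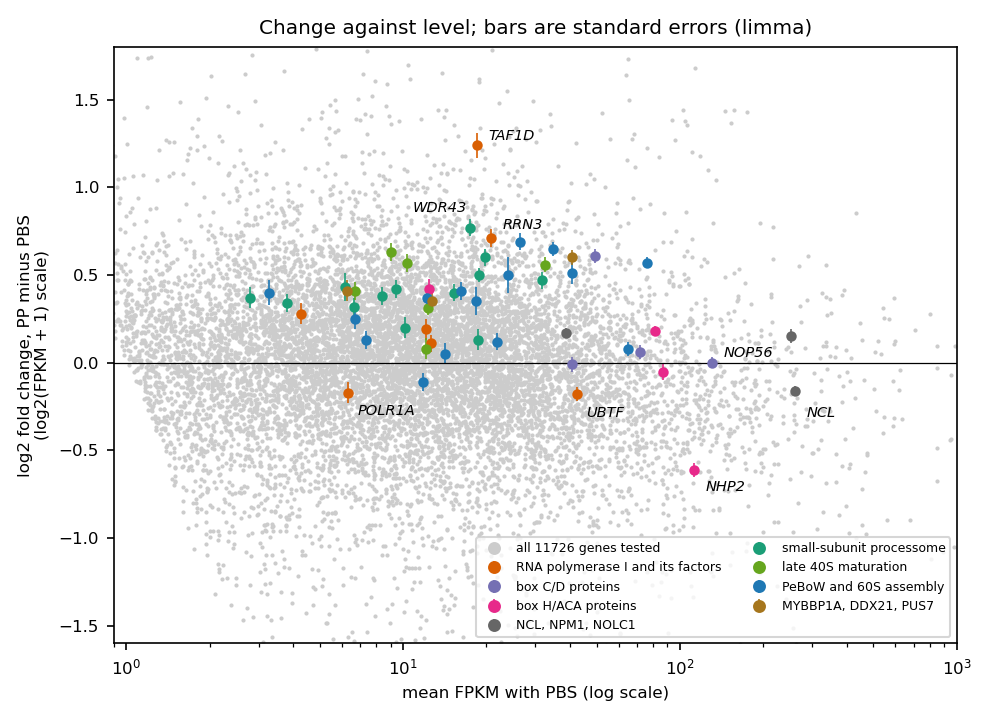
Log2 fold change, PP minus PBS, with its standard error (y axis) against the mean FPKM with PBS (x axis, log scale) for the 55 genes, coloured by role, over all 11726 genes tested in grey; genes outside the axis limits are not drawn. *TAF1D* stands highest of the 55 at 1.24 and *NHP2* lowest at −0.61.

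Where 72.5% of all genes tested were called in either direction, *NOP58* alone of the 4 box C/D core proteins passed the test. It had 50.7, 46.7 and 50.4 FPKM with PBS and 73.3, 75.2 and 78.3 FPKM with PP (log2 fold change 0.61 ± 0.04; limma, adjusted p = 5.81e-07). Its partner *NOP56*, with which it forms the scaffold of the particle, was at 132.7, 130.6 and 129.5 FPKM with PBS and at 134.2, 132.7 and 125.6 FPKM with PP, so the groups overlapped (limma, adjusted p = 0.973). The methyltransferase *FBL*, fibrillarin, had 70.3, 74.3 and 71.2 FPKM with PBS and 74.3, 79.0 and 71.4 FPKM with PP (limma, adjusted p = 0.257). *SNU13*, the protein that binds the kink turn of the small nucleolar RNA, had 40.1, 40.5 and 41.7 FPKM with PBS and 41.5, 40.2 and 39.7 FPKM with PP (limma, adjusted p = 0.78). The ranges of both genes overlapped between the groups.

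Of the 4 box H/ACA core proteins, 2 were higher, 1 was lower and 1 did not pass the test. Over all genes tested, 38.1% were higher and 34.4% lower. *NHP2* was at 111.3, 113.6 and 112 FPKM with PBS and at 76.7, 70.9 and 73.0 FPKM with PP. Every PP library was more than 30 FPKM below every PBS library, and the log2 fold change of −0.61 ± 0.04 (limma, adjusted p = 1.92e-07) was the lowest of the 55 genes. *GAR1* rose, from 13.6, 11.9 and 11.8 FPKM to 16.9, 17.5 and 16.4 FPKM (0.42 ± 0.06; limma, adjusted p = 7.5e-05). *DKC1*, dyskerin, the pseudouridine synthase of the particle, rose from 83.7, 80.6 and 79.9 FPKM to 91.05, 92.8 and 92.3 FPKM (0.18 ± 0.03; limma, adjusted p = 0.000706). In both genes every PP library was above every PBS library. The fourth protein, *NOP10*, had 84.8, 84.7 and 90.3 FPKM with PBS and 84.3, 89.1 and 78.2 FPKM with PP, with overlapping groups (limma, adjusted p = 0.412).

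The 3 abundant nucleolar proteins *NCL*, *NPM1* and *NOLC1* had log2 fold changes of −0.16, 0.15 and 0.17. *NCL*, nucleolin, an RNA-binding protein of the early precursor, fell from 266.2, 253.5 and 260.3 FPKM to 229.9, 232.8 and 233.2 FPKM (log2 fold change −0.16 ± 0.03; limma, adjusted p = 0.000669). *NPM1*, nucleophosmin, a chaperone of ribosome assembly, rose from 265.6, 239.5 and 250.7 FPKM to 271.1, 282.6 and 282.7 FPKM (0.15 ± 0.04; limma, adjusted p = 0.00766). The lowest PP library of *NPM1* was less than 6 FPKM above the highest PBS library. *NOLC1*, a chaperone of small nucleolar ribonucleoproteins, rose from 39.4, 38.15 and 38.4 FPKM to 43.9, 43.2 and 44.01 FPKM (0.17 ± 0.03; limma, adjusted p = 0.00106). The 15 genes with the highest PBS levels had 38.6 to 260 FPKM. Of these, 7 were higher, 3 were lower and 5 did not pass the test (median 0.08). Of the other 40, 33 were higher, 1 was lower and 6 did not pass (median 0.39). Of all genes tested, 38.1% were higher and 34.4% lower. The ranking used the PBS level, which is also 1 side of the fold change, and the split was not tested. Across the 55 genes, the log2 level and the log2 fold change had a Pearson r of −0.26 and a Spearman rho of −0.12, and over all genes tested these were −0.16 and −0.14. These are correlations across genes of the same libraries, given as a description.

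The small-subunit processome rose as a group. Of its 13 genes, 12 were higher, 0 were lower and 1 did not pass the test. Its median log2 fold change was 0.40, and of all genes tested 38.1% were higher and 34.4% lower. *WDR43*, a subunit of the t-UTP subcomplex that joins the precursor first, had 18.7, 16.7 and 16.9 FPKM with PBS and 29.2, 31.2 and 30.5 FPKM with PP (0.77 ± 0.05; limma, adjusted p = 3.76e-07). *UTP4* of the same subcomplex followed at 0.60, and its partners *WDR75*, *HEATR1* and *UTP15* rose by 0.42, 0.38 and 0.34. *NOP14*, a core processome protein, and *RRP9* of the U3 particle rose by 0.50 and 0.47, *RCL1* and *UTP14A*, which act around cleavage of the precursor and release of U3, by 0.43 and 0.40, and *WDR3* of the UTP-B subcomplex and the scaffold protein *UTP20* by 0.37 and 0.32. *DDX10*, a helicase, rose least of those that passed (0.20), a call that was lost when PBS 2 or PP 2 was left out (limma, adjusted p = 0.0627 and 0.0675). *UTP18* had 20.4, 17.97 and 17.45 FPKM with PBS and 20.8, 19.9 and 20.8 FPKM with PP, with overlapping groups (0.13; limma, adjusted p = 0.0545; 0.00434 without PBS 1).

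Late 40S maturation, in which the pre-40S particle is exported and its 18S rRNA is trimmed, rose too. Of 6 genes, 5 were higher, 0 were lower and 1 did not pass, beside 38.1% higher and 34.4% lower of all genes tested. The median log2 fold change of the 6 was 0.49. *PNO1*, the partner of the endonuclease NOB1, had 9.22, 8.62 and 9.32 FPKM with PBS and 15.1, 14.0 and 14.7 FPKM with PP (0.63 ± 0.05; limma, adjusted p = 1.37e-06), so the lowest PP library was over 4 FPKM above the highest PBS library. *NOB1*, which makes the last cut of 18S rRNA, rose by 0.57, *LTV1*, an export and assembly factor, by 0.56, *RRP12* by 0.41 and *TSR1*, a GTPase-like factor of the pre-40S particle, by 0.31. *BYSL*, bystin, had 11.9, 13.02 and 11.4 FPKM with PBS and 13.55, 12.9 and 12.02 FPKM with PP, with overlapping groups (limma, adjusted p = 0.259).

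Among the 15 genes of PeBoW and 60S assembly, 11 were higher, 0 were lower and 4 did not pass. Their median log2 fold change was 0.37, and of all genes tested 38.1% were higher and 34.4% lower. *RRS1*, which helps to bring the 5S particle into the pre-60S subunit, had 26.0, 27.7 and 25.7 FPKM with PBS and 45.8, 42.95 and 40.8 FPKM with PP (0.69 ± 0.05; limma, adjusted p = 7.07e-07). The nucleolar GTPases *GNL2* and *GNL3* (nucleostemin) rose by 0.65 and 0.57. *GNL2* was at 35.4, 34.1 and 35.0 FPKM with PBS and at 56.1, 54.3 and 55.4 FPKM with PP, and in both genes the groups lay apart. The 3 proteins of the PeBoW complex, which is needed to process the 60S rRNA precursor, differed: *BOP1* rose by 0.51, *WDR12* by 0.13 (limma, adjusted p = 0.0403) and *PES1* did not pass. *PES1* had 11.3, 11.97 and 12.15 FPKM with PBS and 11.15, 11.3 and 10.2 FPKM with PP, every PP library below every PBS library by a small margin (−0.11; limma, adjusted p = 0.0802). The call of *WDR12* was lost in 8 of the 14 alternatives, with an adjusted p of up to 0.152.

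*NOP16*, *DDX18*, *PPAN*, *NOP2*, *WDR74* and *NIP7*, further 60S factors, of which *NOP2* is an rRNA methyltransferase and *DDX18* a helicase, rose by 0.50, 0.41, 0.40, 0.37, 0.35 and 0.25. The PBS libraries of *NOP16* were spread out (20.6, 22.7 and 28.6 FPKM) below PP values of 36.5, 34.5 and 31.2 FPKM. *RRP1B*, *EBNA1BP2* and *RRP1* had log2 fold changes of 0.12, 0.08 and 0.05 and did not pass (limma, adjusted p = 0.0553, 0.111 and 0.449). *RRP1B* had 21.7, 21.8 and 21.8 FPKM with PBS and 25.2, 21.9 and 24.2 FPKM with PP, so PP 2 was level with the PBS libraries, and without it the call was made (limma, adjusted p = 0.00771). *EBNA1BP2* was at 69.1, 62.9 and 63.1 FPKM with PBS and at 67.2, 68.4 and 71.3 FPKM with PP, and *RRP1* at 13.4, 15.4 and 13.6 against 14.7, 14.8 and 14.4 FPKM, both with overlapping groups. Without PBS 1, *EBNA1BP2* was called higher (limma, adjusted p = 0.0184).

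The remaining 3 factors all rose, where 38.1% of all genes tested did. *DDX21*, a helicase that acts at both RNA polymerase I and II genes, went from 40.8, 41.9 and 39.0 FPKM to 60.02, 62.8 and 63.6 FPKM (0.60 ± 0.04; limma, adjusted p = 4.02e-07). *PUS7*, a pseudouridine synthase that works without guide RNA, went from 6.27, 6.78 and 5.80 FPKM to 8.46, 8.59 and 9.03 FPKM (0.41; limma, adjusted p = 0.000127). *MYBBP1A*, a nucleolar protein that binds MYB, went from 12.7, 13.3 and 12.1 FPKM to 16.3, 17.0 and 15.9 FPKM (0.35; limma, adjusted p = 0.000117). In each of these every PP library was above every PBS library.

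Because genes of the same role moved apart, ratios of their FPKM were taken within each library, which no scaling between libraries can alter. *RRN3* over *POLR1A* was 3.37, 3.32 and 3.21 with PBS and 6.16, 6.06 and 6.74 with PP. *NHP2* over *GAR1* was 8.21, 9.52 and 9.46 with PBS and 4.53, 4.06 and 4.45 with PP. *NOP58* over *NOP56* was 0.382, 0.358 and 0.389 with PBS and 0.546, 0.567 and 0.623 with PP. In all 9 ratios computed, the PP and PBS libraries did not overlap. For single genes, the groups did not overlap in 75.0% of all genes tested. With such separation the exact two-sided permutation test can only give p = 0.1, the smallest that 3 against 3 libraries allow. The pairs were chosen with the changes of their genes known, so the separation and the p-value add no support. These ratios are a description. *BOP1* over *PES1* went from 3.33, 3.50 and 3.48 to 5.63, 5.26 and 5.21, and *NPM1* over *NCL* from 0.998, 0.945 and 0.963 to 1.18, 1.21 and 1.21.

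**Figure D3:**
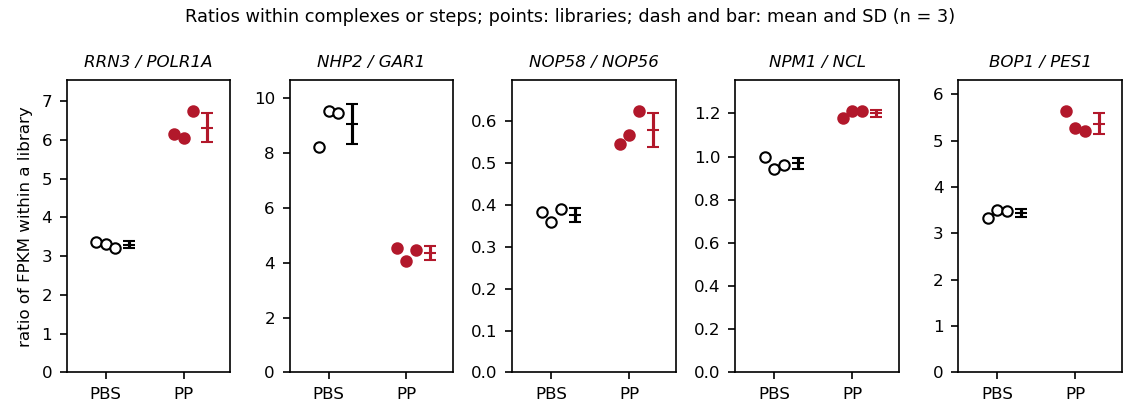
Ratio of 2 genes' FPKM within each library (y axis, starting at 0) for 5 pairs, with PBS libraries open and PP libraries filled, and the mean with its SD (n = 3) beside them. *NHP2* over *GAR1* fell from 9.06 ± 0.74 to 4.35 ± 0.25, and the other 4 ratios were higher in every PP library than in any PBS library.

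Other genes of the same pathway, 135 in number and listed by role, were measured beside the 55. Of the 132 that passed the filter, 89 were higher, 12 were lower and 31 did not pass the test, with a median log2 fold change of 0.27. The background over all genes tested, also for the counts by role, was 38.1% higher and 34.4% lower. By role, 7 of 14 further polymerase I and SL1 genes were higher and 3 lower (median 0.15), 5 of 9 assembly factors of small nucleolar ribonucleoproteins were higher and 2 lower (0.31), 28 of 40 small-subunit genes were higher and 3 lower (0.31), 37 of 45 large-subunit genes were higher and 2 lower (0.32), and 12 of 24 exosome, RNase MRP and trimming genes were higher and 2 lower (0.15). *POLR1F*, a stalk subunit of polymerase I, rose from a mean of 6.16 to 10.6 FPKM and *TAF1A* of SL1 from 2.90 to 4.75 FPKM, while *POLR2L* and *POLR2E*, small subunits common to all 3 polymerases, fell from 45.5 to 28.2 and from 62.2 to 49.4 FPKM. The atypical kinases *RIOK3* and *RIOK1*, which act on the pre-40S particle, rose from 30.2 to 58.1 and from 17.2 to 31.2 FPKM. The assembly factors *ZNHIT6* and *NAF1* had log2 fold changes of 0.80 and 0.59, and *SHQ1* and *RUVBL2* of −0.19 and −0.15.

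Elsewhere in this list, *DDX47* and *RRP36* of the small-subunit pathway fell by 0.38 and 0.27 on the log2 scale, and *FTSJ3* and *NOL12* of the large-subunit pathway by 0.32 and 0.26. *NIFK* and *ZNF593*, also of the large-subunit pathway, rose by 0.80 and 0.79. *RPP38* and *EXOSC9*, subunits of RNase P and MRP and of the exosome, rose by 0.52 and 0.47, whereas *POP5* and *POP4*, other subunits of RNase P and MRP, fell by 0.23 and 0.15. Of the 76 genes of cytosolic ribosomal proteins tested, the proteins that these factors place on rRNA, 37 were higher, 16 were lower and 23 did not pass, with a median of 0.08. These shares were 48.7% higher and 21.1% lower, beside 38.1% and 34.4% of all genes tested. The difference between this list and the processing factors was not tested.

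**Figure D4:**
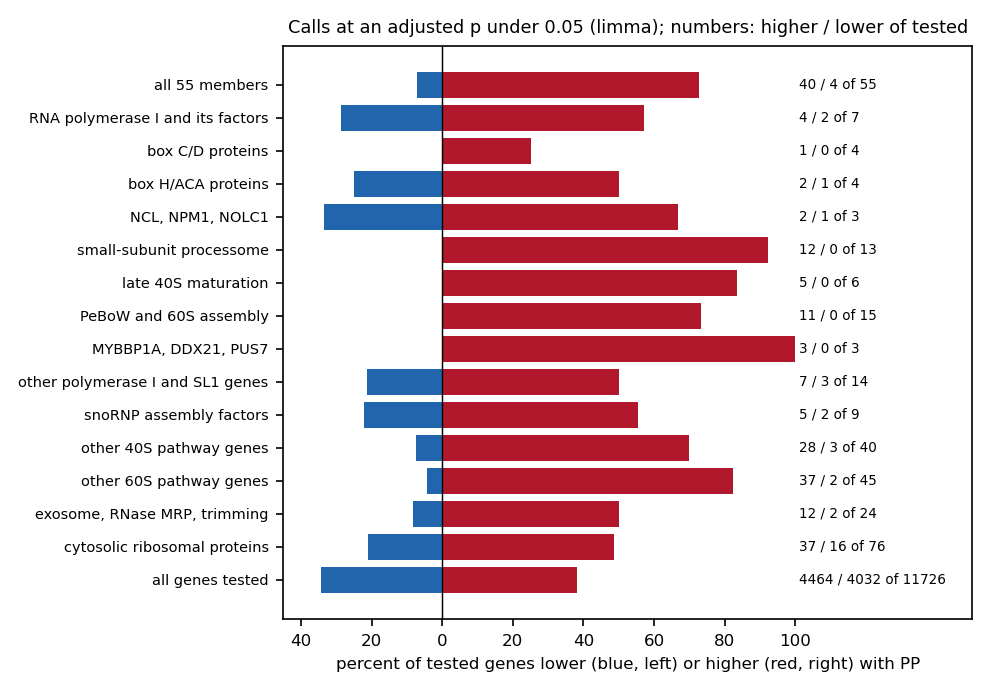
Percent of tested genes called higher (right, red) and lower (left, blue) with PP for the 55 genes, each role, other genes of the pathway, cytosolic ribosomal proteins and all genes tested, with the counts beside the bars. The small-subunit processome has 12 of 13 genes higher and 0 lower, and all genes tested have 4464 higher and 4032 lower of 11726.

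Some values of these genes carry a limit from gene structure. In the GENCODE annotation, 10 of the 55 genes hold 29 nested genes of small nucleolar or Cajal body RNAs (8 of them in *TAF1D*), and 7 of the 10 were higher and 1 lower with PP, with a median log2 fold change of 0.35, the same as for the other 45. Named pseudogenes exist for 12 of the 55, among them 49 of *NPM1* and 3 of *RRN3*, and reads shared with such copies make these levels uncertain. Exons of 18 of the 55 overlap another protein-coding gene, including those of *TAF1D*, *NHP2* and *PPAN*. The library kit kept strand, but whether the counting used it was not stated, so reads from overlapping genes cannot be told apart. Over the same libraries, 9 of 10 proliferation markers were lower and 0 were higher with PP (median −0.52), beside 34.4% and 38.1% of all genes tested. Their sum was 907 to 930 FPKM with PBS and 699 to 715 FPKM with PP. The part of the lower sums of proliferation and neuroendocrine markers in the changes of the rRNA genes was not tested.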

How the data were processed

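The deposited table gives FPKM per gene symbol, computed by the authors from poly(A) RNA of 6 libraries. According to the submitters' processing notes, reads were handled with fastp, HISAT2 and HTSeq on GRCh38. The paper's methods also name HTSeq, but with other aligners and another build, and their replicate number differs from that of its captions, which matches the labels. The table settles none of this, and no gene coordinate was taken from it. The paper's captions call the samples independent, but no source used here says that they are separate cultures, so p-values measure the spread between these libraries, which may be technical.

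Genes with a mean of at least 1 FPKM (11726) were fitted on log2(FPKM + 1), a scale that understates changes of low genes, with limma 3.58.1 (lmFit, eBayes with an intensity trend; R 4.3.3) and Benjamini-Hochberg adjustment over all of them. Whole counts were recovered from the FPKM steps (tolerance 0.01) for all 17177 genes, 268 of which were 0 in every library. Data were simulated with a single spread for all genes and far fewer changed genes than were called here. Of 100 genes changed by 0.5 on the log2 scale, 98 were called, as were 14 of 11526 unchanged genes. The power in the real data may differ. Alternatives changed the pseudocount, filter, scaling, trend, block, left-out library or used voom on the counts. Ratios were tested on the log2 scale by exact permutation of the libraries (numpy 2.4.6), and Spearman's rho was computed with scipy 1.17.1.

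The 55 genes, their roles and the other lists were chosen with earlier results of these data known. All 55 genes were named. Values by library were given at least for the highest and lowest of each role and all of small roles. They were also given for genes past the methods' cutoff and those that did not pass. Of each further list, the 2 highest and 2 lowest called were named. The promoter motifs and gene structures came from RefSeq (GRCh38.p14) and GENCODE release 44, the latter on its GRCh37 mapping. *KLK2* and *KLK3* were not analysed here. *PWP2*, *RPP14* and *RPP21* were under the filter. Symbols matched directly.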

Additional observations from a re-analysis of the deposited data

How the results depend on the processing

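Over the 14 alternatives, 37 to 42 of the 55 genes were higher and 3 to 5 lower with PP, and under the methods' cutoff 1 was higher and 0 lower in each. The 37 came from the filter of a mean of at least 5 FPKM, under which only 51 of the 55 genes were fitted. Over all genes, of which the alternatives fitted 8660 to 16909, 3529 to 4620 were higher and 3031 to 4415 lower. The median log2 fold change of the 55 genes was 0.389 with a pseudocount of 0.1, 0.24 with a pseudocount of 5, 0.328 with median-ratio size factors and 0.39 with voom on the recovered counts, and 0.339 to 0.371 with 1 library left out. Of the other pathway genes, 83 to 90 were higher and 9 to 14 lower, the 83 again under the filter of 5 FPKM. Among single genes, 43 of the 55 kept their call and direction in every alternative that fitted them. The direction turned for 3 that did not pass, *NOP56*, *SNU13* and *NOP10*. Their log2 fold changes in the main fit were −0.00147 ± 0.03, −0.01 ± 0.04 and −0.05 ± 0.05 (SE). *NOP56* was at 0.00818 without PBS 1 and 0.03 without PP 3, and its lowest value with 1 library left out was −0.02. *SNU13* was at 0.00423 without PBS 3 and 0.00112 without PP 3, with a lowest such value of −0.03. *NOP10* was at 0.00212 without PP 3, with a lowest such value of −0.09. Calls were lost in some alternatives for *POLR1A*, *POLR1E*, *DDX10* and *WDR12*. They were gained in some for *POLR1C*, *UTP18*, *RRP1B* and *EBNA1BP2*, and *PES1* was called lower (−0.13, limma adjusted p = 0.0417) with median-ratio size factors. The cause was not tested. Same-numbered libraries did not deviate together (correlations −0.211, −0.014 and −0.127). This gave no sign of a pairing by number, but it cannot exclude a pairing with little shared variation. With a replicate block, 39 genes were higher and 4 lower, the call of *WDR12* being lost (limma, adjusted p = 0.0741). *PPAN* had the fewest fragments of the 55 genes, 244 to 384 per library.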
